A study of Mus musculus with 6 samples.

Results

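The endoplasmic reticulum (ER) chaperones and the unfolded protein response were examined in cytokine-secreting lung group 2 innate lymphoid cells (ILC2s) as a list of 34 genes named by symbol. All 34 are among the 17831 genes of the bulk RNAseq table, and all 34 are among the 13623 genes that had enough reads to be tested. The list was divided by role into 12 chaperones and co-chaperones, 4 disulfide isomerases, 5 genes for the stress sensors and the factor XBP1, 10 genes of ER-associated degradation and 3 subunits of the SEC61 translocon. The question was whether the transcripts of this folding machinery differed between ILC2s with and without SIRPα, an inhibitory receptor that binds CD47. Bulk RNAseq was available for 3 libraries from wild-type mice (WT, strain CB57BL/6 in the labels) and 3 libraries from mice homozygous for the SIRPαtm1Ynliu/J allele (SIRPα KO). That allele is carried by every cell of the animal. Mice of both genotypes were 6 to 8 weeks old and had received 0.5 μg of rmIL-33 by the nose on each of 3 days. Lung ILC2s were sorted on day 4 as CD45+, lineage-, CD127+, ST2+ cells and kept in culture with 10 ng/ml each of rmIL-2 and rmIL-7, for 18 h in one place of the study's text and 24 h in another. There was no library without IL-33, and the number of mice behind a library is not given in the sources used here.

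Proteins that are secreted or inserted into membranes enter the ER through the SEC61 channel and are folded there by chaperones such as BiP (Hspa5) and GRP94 (Hsp90b1), by the lectins calnexin and calreticulin, and by disulfide isomerases. When unfolded protein accumulates, 3 sensors in the ER membrane respond. IRE1α (Ern1) splices the mRNA of Xbp1 so that an active factor is made, ATF6 is cut in the Golgi to release a factor, and PERK (Eif2ak3) slows translation and favors ATF4 and CHOP (Ddit3). These factors raise the transcription of chaperones and of the degradation machinery, which returns misfolded proteins to the cytosol for the proteasome. ILC2s secrete large amounts of IL-5 and IL-13, and cells with a high secretory load usually hold abundant ER chaperones. Gene counts do not separate spliced from unspliced Xbp1 and say nothing of the cleavage of ATF6 or the phosphorylation of PERK.

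Counted reads summed to 13980499 in the smallest library and 19051507 in the largest. Levels are counts scaled to library size (CPM, the reads of a gene per 1e6 reads). The 13 ILC2 markers summed to 15466 to 16637 CPM in WT and 21296 to 21838 CPM in SIRPα KO. Il5 alone was at 8448 to 13241 CPM over the 6 libraries. By edgeR, 3 of the 13 were higher and 1 lower at an adjusted p under 0.05, beside 5.94% and 5.81% of all genes. The log2 fold change was above 0 for 9 of the 13 and below 0 for 4. Il5 was higher in SIRPα KO, with a log2 fold change of 0.49 (adjusted p = 0.0138 by the quasi-likelihood test of edgeR), and Il13, at 527 to 743 CPM in WT and 756 to 882 CPM in SIRPα KO, did not pass the test (log2 fold change 0.34, adjusted p = 0.141 from edgeR). Sirpa itself was counted at 4.83 to 8.57 CPM in WT and 1.74 to 4.46 CPM in SIRPα KO (log2 fold change -1.12, adjusted p = 0.115 from edgeR). Transcripts of B cells were lower in SIRPα KO. Of 10 B and plasma cell genes in the table, 5 passed the test and all 5 were lower, beside 5.81% of all genes. The summed level of the 10 genes was 233 to 499.7 CPM in WT and 25.2 to 90.9 CPM in SIRPα KO. Plasma cells are rich in ER chaperones. The plasma cell genes Sdc1 and Derl3 were at most 3.60 CPM in any library, Mzb1 was at 2.77 to 3.84 CPM in WT and 0.187 to 1.21 CPM in SIRPα KO, and Jchain was at 7.68 to 20.05 CPM in WT and 0.0639 to 4.03 CPM in SIRPα KO. Of the 4 T cell genes tested, 3 were lower in SIRPα KO, beside 5.81% of all genes. The summed level of the T cell list was 205 to 274 CPM in WT and 123 to 132 CPM in SIRPα KO, and Cd4 was at 0 in 5 of the 6 libraries. With the length and GC offset described below, 1 T cell gene and 2 B and plasma cell genes were called lower, beside 4.47% of all genes. The median log2 fold change went from -0.82 to -0.193 with it for T cells and from -2.325 to -2.485 for B and plasma cells. The summed macrophage markers were at 43.7 to 128 CPM in WT and 76.9 to 120 CPM in SIRPα KO, and those of dendritic cells at 115 to 215 and 64.3 to 76.9 CPM. The summed markers of mast cells and basophils, of epithelial cells and of neutrophils were at most 35.8 CPM in any library. The part of these other cells in the values below was not tested.

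A pair of features of the libraries touches the values below. The biological coefficient of variation (the spread between replicates beyond counting error) was 30.1% over the 3 WT libraries against 13.6% in SIRPα KO. It was 33.2% for WT replicate 3 with either other WT replicate and 23.6% for WT replicates 1 and 2. WT replicate 3 thus stood apart, but the other 2 WT libraries also differed from each other. WT replicate 3 was the lowest of the WT libraries for 21 of the 34 genes and the highest for 8. The labels also give WT replicates 1 and 2 one code and SIRPα KO replicates 2 and 3 another, and the design text speaks of duplicates, so each group may hold 2 samples. The libraries of one code differed by more than counting noise and were kept as replicates. That excess cannot tell 2 samples from 2 libraries of one sample. The coefficient was 13.8% for SIRPα KO replicates 2 and 3, which share a code. It was 12.1% for SIRPα KO replicates 1 and 2 and 14.7% for replicates 1 and 3. The calls were also made with the libraries of one code summed. That gave 0 calls in the 34 genes and in each other list named here, and 10 calls in all 14581 genes tested. Adjusted p values that count 3 libraries per group are too small if a code is one sample. In bulk RNA, a smaller number of cells of a type and less RNA per cell cannot be told apart.

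The ER genes covered a wide range of levels. On the scale of CPM per kilobase of transcript, which allows genes to be compared, Pdia3 had the highest mean in WT (481), followed by Calr (408), Sec61b (403), Hsp90b1 (370), Vcp (331), Hspa5 (317), P4hb (262), Pdia6 (254) and Xbp1 (253). The lowest were Edem3 (3.62), Eif2ak3 (4.12), Atf6 (4.67), Dnajb9 (9.90) and Ern1 (10.0). The transcripts of the 3 sensors were therefore rare in these cells, and those of the folding enzymes abundant. Together the 34 genes held 12453 ± 831 CPM in WT (SD, n = 3) and 14400 ± 299 CPM in SIRPα KO (SD, n = 3), which was 1.13% to 1.30% of the reads of a WT library and 1.41% to 1.46% of those of a SIRPα KO library. The SIRPα KO sums were above every WT sum. The smallest number of reads for any of these genes in a library was 131, for Edem3 in WT replicate 3, and the largest was 30601, for Hspa5. The median coefficient of variation over the 34 genes was 13.4% in WT and 4.4% in SIRPα KO, where counting error alone gives a median of 1.7% in each. The spread was above the counting error of the gene for 33 of the 34 in WT and for 30 in SIRPα KO.

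The promoters of these genes are known for the ER stress response element (ERSE), to which ATF6 binds next to the CCAAT-binding factor NF-Y. RefSeq gives a window of 250 bases before to 50 bases after the start for 29 of the 34 genes (GRCm38.p6), and those of Hyou1, Manf, Atf6, Derl1 and Sec61a1 were not analysed here. The element was searched on both strands as CCAAT, any 9 bases, then CCACG. It was found in 8 of the 29 genes with a window (27.6%) and in 39 of 32851 RefSeq promoter windows (0.119%). The second share counts windows and not genes, and the windows belong to 27025 genes. The sites below, with 5 bases on each side, are shown because they mark the classic targets of the response among these genes. Each is read along the strand that carries CCAAT, and the capitals mark the fixed bases of the element. Distances are from the RefSeq start, which can differ from the GENCODE gene bounds given below. The Hspa5 site lies inside the GENCODE bounds of that gene, 34771970 to 34777547.
Hspa5, chr2:34772020-34772048, 65 to 47 bases before the start: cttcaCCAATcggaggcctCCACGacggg
Hsp90b1, chr10:86705633-86705661, 212 to 194 bases before the start: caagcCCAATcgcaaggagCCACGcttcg
Hsp90b1, chr10:86705528-86705556, 107 to 89 bases before the start, opposite strand: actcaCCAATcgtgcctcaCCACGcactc
Calr, chr8:84847070-84847098, 162 to 144 bases before the start, opposite strand: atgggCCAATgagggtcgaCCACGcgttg
Canx, chr11:50325795-50325823, 145 to 127 bases before the start: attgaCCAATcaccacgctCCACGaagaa
Dnajc3, chr14:118937822-118937850, 105 to 87 bases before the start: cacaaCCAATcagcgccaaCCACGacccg
Creld2, chr15:88819515-88819543, 126 to 108 bases before the start, opposite strand: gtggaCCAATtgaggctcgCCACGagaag
Pdia6, chr12:17266486-17266514, 98 to 80 bases before the start: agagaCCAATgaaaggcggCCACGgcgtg
Syvn1, chr19:6046527-6046555, 44 to 26 bases before the start: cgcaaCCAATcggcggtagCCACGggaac

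A second element, ERSE-II (ATTGG, any base, CCACG), was found in the windows of Herpud1 and Dnajb11 and in 0.037% of all windows. TGACGTGG, a longer form of the XBP1 core ACGTGG, was found in that of Vcp and in 0.676% of all windows. The sites of Herpud1 and Vcp are shown with the motif in capitals, since Herpud1 is a textbook target of the response and Vcp passed the test below.
Herpud1, chr8:94386372-94386392, 52 to 42 bases before the start: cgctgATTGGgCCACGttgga
Vcp, chr4:43000609-43000626, 114 to 107 bases before the start: ccaatTGACGTGGcgtta
The core ACGTGG was present in 8 of the 29 genes with a window (27.6%) and in 8.31% of all windows, and its 7-base form GACGTGG in 3 genes (10.3%) and 2.42% of all windows. The element TGATGNAA, to which CHOP and ATF4 bind with C/EBP partners, was in the window of Herpud1 alone among these genes and in 3.97% of all windows. A match describes letters in a window and not a bound site. By edgeR with all libraries, none of the 8 genes with an ERSE passed the test of genotype. DESeq2 called 4 of them higher (Hspa5, Hsp90b1, Calr and Canx), as did edgeR without WT replicate 3, and the offset described below called Creld2 higher. Of all genes, DESeq2 called 13.5% higher, edgeR without WT replicate 3 10.4% and the offset 4.02%. The median log2 fold change of the 8 genes was 0.24, against 0.062 for the 21 genes with a window and no ERSE. Their median transcript lengths were 3144.5 and 2566 bases, and fold changes followed length, as described below. With the offset the 2 medians were 0.12 and 0.005. The part of the ERSE in this difference was not tested.

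Most of the 34 genes did not pass the threshold, and those that did lay in both directions. By edgeR's quasi-likelihood test, with adjustment over 13623 genes, 2 of the 34 were higher in SIRPα KO (Hyou1 and Vcp) and 4 were lower (Sdf2l1, Xbp1, Sec61b and Sec61g), while 28 did not pass. This was 5.88% and 11.8% of the list, where 5.94% of all tested genes were higher and 5.81% were lower. The log2 fold change was above 0 for 23 of the 34 genes and had a median of 0.15, where 48.4% of all genes were above 0 and their median was -0.025. At an unadjusted p under 0.05 from edgeR, 11 of the 34 had a log2 fold change above 0 and 4 below, and of all genes 16.1% and 15.8%. For 22 of the 34 genes the WT and SIRPα KO values did not overlap, 15 with higher and 7 with lower values in SIRPα KO, and this was so for 42.8% of all genes. Without WT replicate 3, edgeR called 8 of the 34 higher and 4 lower, where 10.4% and 8.07% of all genes were called. DESeq2 called 10 higher and 4 lower, where it called 13.5% and 10.9% of all genes. Without any one of the SIRPα KO replicates, edgeR called 0 of the 34. It then called 16 of 14242, 17 of 14146 and 17 of 14141 genes in all without replicates 1, 2 and 3. At an unadjusted p under 0.05 there were 11, 12 and 14 without replicates 1, 2 and 3, beside 21%, 20.7% and 22.5% of all genes. With libraries of one code summed, which leaves 2 against 2, it also called 0, where 0.0686% of all genes were called, and 11 were at an unadjusted p under 0.05, beside 23% of all genes.

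**Figure D1:**
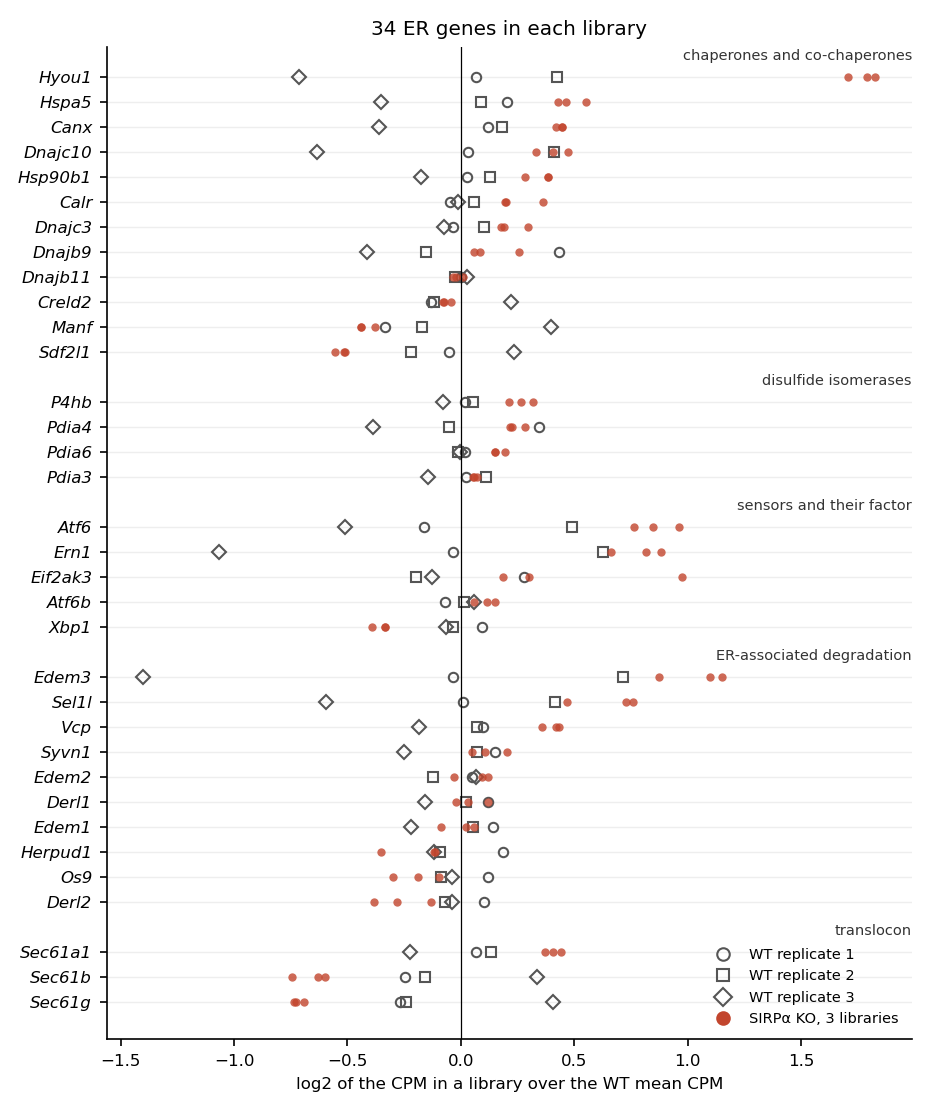
Each row is one of the 34 genes, by role, and the x axis is log2 of the CPM in a library over the mean CPM of the 3 WT libraries. Open symbols are WT replicates and filled circles SIRPα KO replicates. The SIRPα KO points of Hyou1 lie far to the right of every WT point, those of Sec61b and Sec61g lie to the left, and WT replicate 3 (diamonds) is often at an edge.

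Among the chaperones, Hyou1 had the largest change of all 34 genes. Hyou1 (chromosome 9, 44379490 to 44392369 in mm10) encodes the large chaperone ORP150, a nucleotide exchange factor of BiP. It was counted at 84.0, 108 and 48.9 CPM in WT replicates 1, 2 and 3 and at 285, 278 and 262 CPM in SIRPα KO replicates 1, 2 and 3. All SIRPα KO libraries lay above all WT libraries, and the SIRPα KO libraries were close to each other. The log2 fold change was 1.78 (standard error, SE, 0.26), a 3.43-fold higher level (adjusted p = 0.0131 from edgeR). It kept its direction in all 16 alternatives, with log2 fold changes of 1.43 to 2.05, and passed the threshold in 11 of them. The other 5 were those without a SIRPα KO replicate (adjusted p = 0.0912, 0.0928 and 0.0705 from edgeR without replicates 1, 2 and 3) and those with libraries of one code summed.

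Hspa5 (BiP; chromosome 2, 34771970 to 34777547), the central HSP70 chaperone of the ER and the usual marker of the response, had 1342, 1237 and 912 CPM in WT against 1706, 1606 and 1568 CPM in SIRPα KO. The groups did not overlap, and the lowest WT value was again that of replicate 3. Its log2 fold change of 0.48 (SE 0.14) did not pass the test (adjusted p = 0.0649 from edgeR). It was past the threshold without WT replicate 3 (adjusted p = 0.00963 from edgeR) and with DESeq2 (adjusted p = 0.0179). The same held for Hsp90b1 (GRP94, log2 fold change 0.35), Calr (calreticulin, 0.25) and Canx (calnexin, 0.44), for each of which the groups did not overlap and the adjusted p was 0.0619 to 0.101 from edgeR. Dnajc3 (p58IPK), a co-chaperone of BiP, had a log2 fold change of 0.22 and Dnajc10 (ERdj5), a reductase that works with BiP, one of 0.41, neither past the threshold.

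Other co-chaperones had values near 0 or below. Dnajb11 (ERdj3) had nearly the same level in all libraries, at 229 to 239 CPM, with a log2 fold change of -0.016. Dnajb9 (ERdj4), which binds IRE1α and hands BiP to it, had 0.13, and Creld2, a secreted stress response protein, had -0.066. Manf, which stabilizes BiP with its clients, had -0.42 (adjusted p = 0.163 from edgeR), and -0.16 without WT replicate 3, its highest library. It overlaps 2 other coding genes, Rbm15b on its own strand and Dcaf1 on the other, so its reads are uncertain. Sdf2l1 (chromosome 16, 17130138 to 17132383), which holds misfolded clients in solution in a complex with ERdj3, was lower in SIRPα KO. It had 246, 220 and 300.2 CPM in WT against 179, 179 and 174 CPM in SIRPα KO, so all SIRPα KO libraries lay below all WT libraries. The log2 fold change was -0.53 (SE 0.13, adjusted p = 0.0438 from edgeR).

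**Figure D2:**
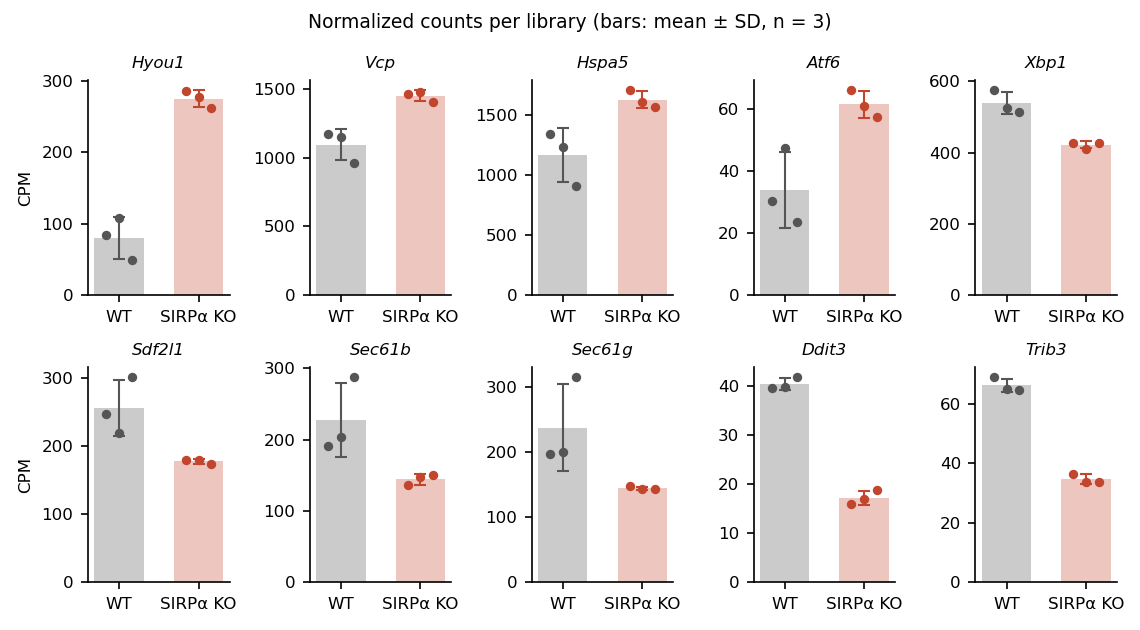
CPM of 8 of the ER genes and of Ddit3 and Trib3 in each library, with bars for the mean and whiskers for the SD of 3 libraries and points for single libraries. Hyou1 rises from 48.9 to 108 CPM in WT to 262 to 285 CPM in SIRPα KO, while Ddit3 and Trib3 are lower in every SIRPα KO library.

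The disulfide isomerases, which form and rearrange disulfide bonds in new proteins, were among the most abundant of these transcripts and none of the 4 passed the test. P4hb (PDI) had a log2 fold change of 0.27 (adjusted p = 0.0836 from edgeR), Pdia4 (ERp72) of 0.24, Pdia6 (P5) of 0.17 and Pdia3 (ERp57), the partner of calnexin and calreticulin, of 0.062. The groups did not overlap for P4hb and Pdia6. P4hb was past the threshold without WT replicate 3 (adjusted p = 0.0234 from edgeR) and with DESeq2 (adjusted p = 0.0163). Pdia3 and Pdia6 each overlap a coding gene on the other strand, and strand was not stated for the counting.

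Xbp1 was lower in SIRPα KO, and none of the stress sensors passed by edgeR with all libraries. Xbp1 (chromosome 11, 5520659 to 5525893), whose mRNA is the target of IRE1α, had 575, 527 and 515 CPM in WT against 428, 410 and 427 CPM in SIRPα KO. The groups did not overlap, and the log2 fold change was -0.35 (SE 0.093, adjusted p = 0.0480 from edgeR). It ranged from -0.45 to -0.24 over the 16 alternatives and passed the threshold in 5 of them. Leaving out WT replicate 1, 2 or 3 gave adjusted p values of 0.0846, 0.0527 and 0.00955 from edgeR. Ern1 (IRE1α; chromosome 11, 106394650 to 106487852) had 67.9, 108 and 33.2 CPM in WT against 110, 122 and 128 CPM in SIRPα KO, which gave a log2 fold change of 0.79 (SE 0.36, adjusted p = 0.171 from edgeR). WT replicate 2 lay just under the lowest SIRPα KO library. Without that replicate Ern1 was called (1.25, adjusted p = 0.0352 from edgeR), and without WT replicate 3 it had 0.46. Atf6 (chromosome 1, 170704674 to 170867771) had 30.2, 47.5 and 23.7 CPM in WT against 66.0, 60.9 and 57.4 CPM in SIRPα KO, with no overlap. Its log2 fold change was 0.86 (SE 0.25, adjusted p = 0.0618 from edgeR), and it passed with DESeq2 (adjusted p = 0.00922) and by edgeR without WT replicate 2 (adjusted p = 0.0154). Eif2ak3 (PERK; chromosome 6, 70844515 to 70905245) had 22.5, 16.2 and 17.0 CPM in WT against 22.9, 21.1 and 36.5 CPM in SIRPα KO, so the groups overlapped and SIRPα KO replicate 3 was the highest. Its log2 fold change was 0.53 (SE 0.26, adjusted p = 0.201 from edgeR), and 0.25 without SIRPα KO replicate 3. Atf6b, the paralog of Atf6, had 0.11.

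Of the 10 genes of ER-associated degradation, 1 passed the test. Vcp (p97; chromosome 4, 42979963 to 43000507), the ATPase that pulls ubiquitinated proteins out of the ER membrane, was higher in SIRPα KO. It had 1172, 1152 and 965 CPM in WT against 1467, 1480 and 1404 CPM in SIRPα KO, with no overlap and a log2 fold change of 0.40 (SE 0.10, adjusted p = 0.0413 from edgeR). A processed pseudogene, Vcp-rs, matches 73.0% of its transcript at 99.05% identity and was counted at 24.6 to 36.5 CPM, so a small part of the reads may be shared. It also overlaps 1700022I11Rik on the other strand. Edem3, which trims mannose from misfolded glycoproteins, had the second largest log2 fold change of the 34 genes, 1.05, but with the largest standard error (0.44, adjusted p = 0.148 from edgeR). Its values were 22.4, 37.6 and 8.67 CPM in WT against 41.9, 49.0 and 50.8 CPM in SIRPα KO. The groups did not overlap, and the WT libraries were far apart from each other. The log2 fold change was 0.67 without WT replicate 3, 1.61 without WT replicate 2, when it was called (adjusted p = 0.0369 from edgeR), and 0.59 with the offset described below.

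The ubiquitin ligase complex of this pathway gave no call by edgeR with all libraries. Sel1l, its scaffold, had a log2 fold change of 0.66 (adjusted p = 0.105 from edgeR) and was called by DESeq2 (0.68, adjusted p = 0.0386) and by edgeR without WT replicate 2 (0.92, adjusted p = 0.0304). Syvn1 (HRD1), the ligase, had 0.12 and Herpud1, an adaptor of the complex, -0.19. The other lectins and channel proteins had 0.062 (Edem2), -0.0012 (Edem1), -0.19 (Os9), 0.045 (Derl1) and -0.26 (Derl2). Over the 10 genes the median log2 fold change was 0.054. Derl2 overlaps Mis12, and Syvn1 overlaps Mrpl49, each on the other strand.

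Of the 3 subunits of the SEC61 channel, 2 passed the test. Sec61b (chromosome 4, 47474658 to 47483242) and Sec61g (chromosome 11, 16500530 to 16508484), the small β and γ subunits, were lower in SIRPα KO. Sec61b had 192, 204 and 287 CPM in WT against 136, 147 and 150.3 CPM in SIRPα KO (log2 fold change -0.65, SE 0.17, adjusted p = 0.0439 from edgeR). Sec61g had 197, 200.2 and 314 CPM in WT against 147, 143 and 143 CPM in SIRPα KO (log2 fold change -0.72, SE 0.19, adjusted p = 0.0474 from edgeR). For both, all SIRPα KO libraries lay below all WT libraries and WT replicate 3 was the highest. Without that replicate Sec61g was at -0.45, still past the threshold (adjusted p = 0.00735 from edgeR). Sec61a1, which forms the pore, had a log2 fold change of 0.41, with all SIRPα KO libraries above all WT libraries and an adjusted p of 0.0566 from edgeR. It was called by DESeq2 (adjusted p = 0.0104) and by edgeR without WT replicate 2 or 3 (adjusted p = 0.0394 and 0.0109). The gene Gm10320 matches 84.0% of the Sec61b transcript at 98.312% identity but was counted at 10.3 CPM or less.

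Fold changes followed transcript length over genes with an average log2 CPM of 3 or above and a known length, and the 34 genes lay along the same line. The median log2 fold change of those genes went from -0.57 in the tenth with the shortest transcripts to 0.46 at the longest. Over the 34 genes, Pearson's r between log2 length and log2 fold change was 0.72 and Spearman's rho 0.76 (a description across genes of the same 6 libraries). The 11 shortest (564 to 2399 bases) had a median of -0.19 and the 11 longest (3672 to 7246 bases) a median of 0.53. The 4 genes that were lower, Sec61b (564 bases), Sdf2l1 (1108 bases), Sec61g (1862 bases) and Xbp1 (2129 bases), were all short, and the sensors Atf6, Ern1 and Eif2ak3 were long (7246, 6946 and 4513 bases). An offset for each library, fitted on length and GC content over 8796 genes outside the lists used here, brought the decile medians to between -0.04 and 0.02 and Pearson's r over the 34 genes to 0.25. The offset was fitted on genes with the same lowest level as the deciles, so decile medians near 0 follow from the fit and do not test it.

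**Figure D3:**
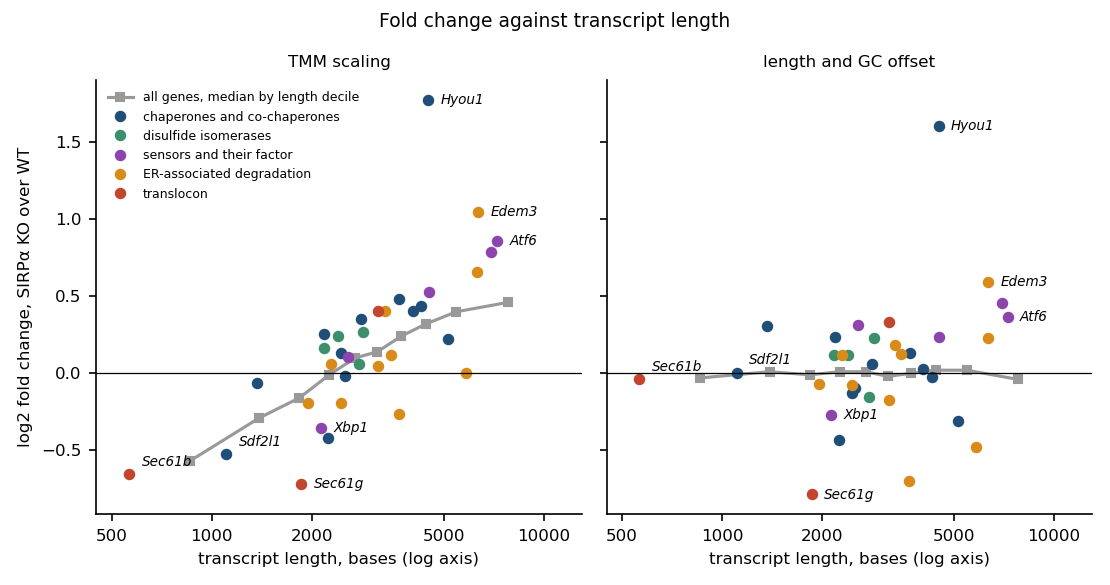
Log2 fold change of the 34 genes against the length of their transcript on a log axis, without (left) and with (right) the offset for length and GC content. Grey squares are the medians of all genes by length decile, which run from -0.57 to 0.46 on the left and stay between -0.04 and 0.02 on the right, and Hyou1 stands above them in both panels.

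With this offset the calls changed. By edgeR, 3 of the 34 genes were then higher (Hyou1, Sec61a1 and Creld2) and 3 lower (Sec61g, Edem1 and Derl2), where 4.02% of all genes were higher and 4.47% lower, and the median over the 34 was 0.089. Hyou1 and Sec61g were called in both fits. The log2 fold change of Hyou1 was 1.61 (SE 0.18, adjusted p = 0.00418 from edgeR), so most of its difference was not taken up by the offset. That of Hspa5 was 0.13, of Canx -0.026, of Sdf2l1 0.0047 and of Sec61b -0.039, all with an adjusted p of 0.249 or above from edgeR. Atf6 had 0.37, Ern1 0.45, Sel1l 0.23 and Hsp90b1 0.061 (adjusted p = 0.206, 0.315, 0.335 and 0.584 from edgeR). Calr and P4hb had 0.23 each (adjusted p = 0.0881 and 0.0678 from edgeR). Xbp1 had -0.27 (adjusted p = 0.0601 from edgeR) and Vcp 0.18 (adjusted p = 0.0840 from edgeR). Sec61a1 had 0.33 (adjusted p = 0.0327 from edgeR) and Creld2 0.31 (adjusted p = 0.0423 from edgeR). Edem1 had -0.48 (adjusted p = 0.0261 from edgeR) and Derl2 -0.70 (adjusted p = 0.0291 from edgeR). The coding transcripts of Derl2 range from 884 to 3666 bases, and the offset used the longest. Sec61g had -0.79 (adjusted p = 0.0390 from edgeR), but its coding transcripts range from 450 to 1862 bases in the annotation and the offset used the longest. With the median-length coding transcript of each gene in its place, Hyou1 and P4hb were called higher and Edem1 lower. Derl2 was then at -0.26 (adjusted p = 0.182 from edgeR) and Sec61g at -0.65 (adjusted p = 0.0540 from edgeR). The median over the 34 was 0.001, where that over all genes was -0.088.

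**Figure D4:**
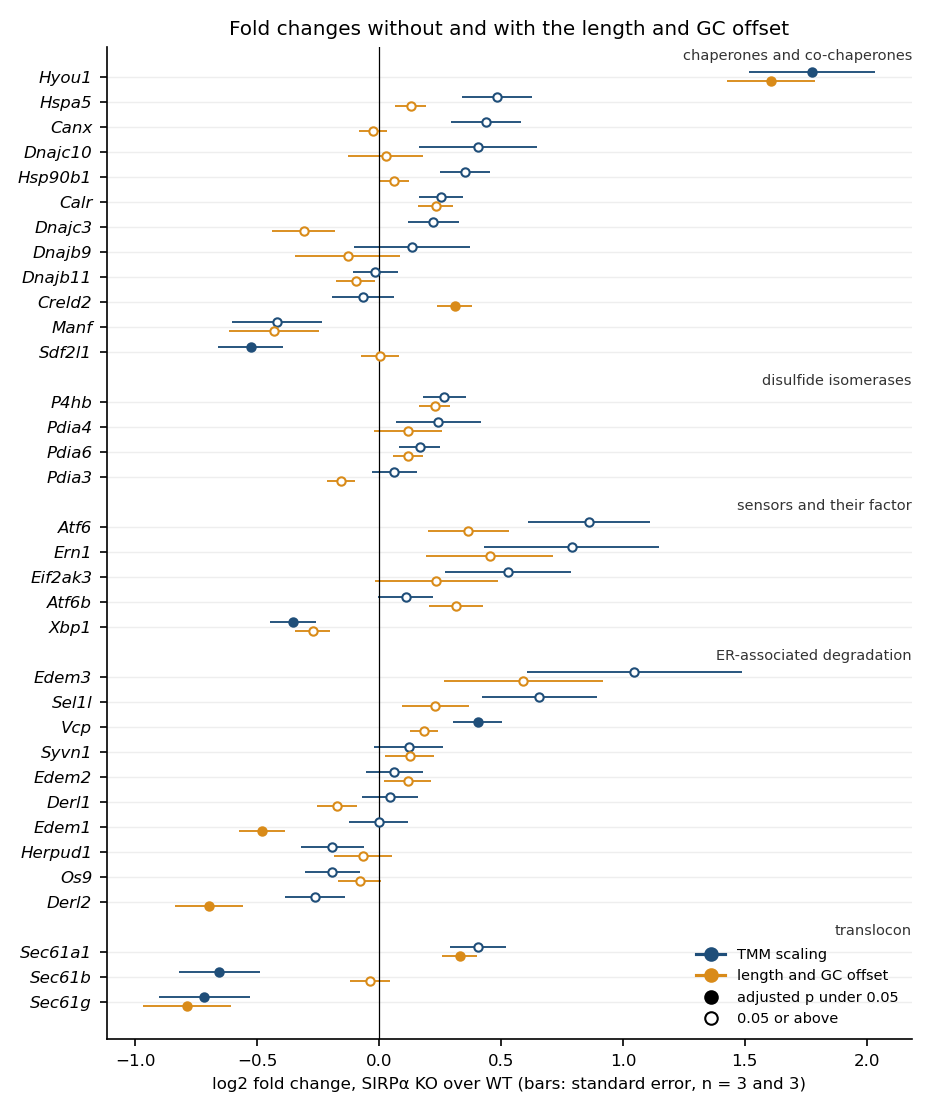
Log2 fold change of each of the 34 genes, SIRPα KO over WT, with its standard error (3 libraries per group), under TMM scaling (blue) and with the length and GC offset (orange); filled points had an adjusted p under 0.05 from edgeR. Hyou1 keeps a value of 1.78 and 1.61, while Sdf2l1 and Sec61b move from -0.53 and -0.65 to near 0.

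Among the other genes of the ER pathways, 135 were tested outside the 34. Of these, 18 were higher (13.3%) and 13 lower (9.63%) in SIRPα KO by edgeR, beside 5.94% and 5.81% of all genes, and 14 of the 31 were called in the same direction with the length and GC offset. Of those named here, none passed with a SIRPα KO replicate left out or with the codes summed. Of all genes, only 16 to 17 passed without a SIRPα KO replicate and 10 with the codes summed.

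In the list made for the PERK branch, 3 of 13 genes were lower and 2 higher. Ddit3, which encodes CHOP, had 39.5, 39.7 and 41.6 CPM in WT against 15.9, 16.9 and 18.7 CPM in SIRPα KO. The log2 fold change stood at -1.23 (SE 0.16, adjusted p = 0.00958 from edgeR) and -0.68 with the offset (adjusted p = 0.0529). Trib3, a target of CHOP, had 68.9, 65.0 and 64.8 CPM in WT against 36.6, 33.9 and 33.9 CPM in SIRPα KO, with a log2 fold change of -0.93 (SE 0.13, adjusted p = 0.0124 from edgeR) and -0.66 with the offset (adjusted p = 0.0210). The replicates of each group were close for both genes, WT replicate 3 included. Eif2a, an initiation factor that can bring the initiator tRNA to the ribosome without eIF2, was higher (log2 fold change 0.82, adjusted p = 0.0316 from edgeR). It was also called with the offset (0.63, adjusted p = 0.0398 from edgeR). The other higher gene, Eif2s1, which encodes a subunit of eIF2, had a log2 fold change of 0.40 (adjusted p = 0.0408 from edgeR). With the offset Eif2s1 was at -0.025 and was not called (adjusted p = 0.903 from edgeR). Atf4, named after its values were seen, had 215, 276 and 366 CPM in WT against 203, 214 and 200 CPM in SIRPα KO, which did not pass the test (log2 fold change -0.47, adjusted p = 0.124 from edgeR).

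Of the 10 genes of ATF6 processing and other ER-anchored factors, none passed by edgeR. At an unadjusted p under 0.05 there were 3 above 0 and 0 below, beside 16.1% and 15.8% of all genes. The largest log2 fold change was that of Creb3l2, an ER-anchored transcription factor, at 0.74. In the list of IRE1α partners and the RNA ligase, 2 of 8 genes were higher, Sec16a (1.01), which organizes ER exit sites, and Ddx1 (0.58), a helicase of the tRNA ligase complex that rejoins cut Xbp1 mRNA. With the offset Sec16a (0.67) was called and Ddx1 (0.12) was not. Among 16 genes of oxidative folding, 2 were higher and 3 lower. The largest changes among them were those of the prolyl isomerase genes Fkbp11 (log2 fold change 1.58, from 3.12 ± 0.90 to 9.29 ± 0.79 CPM, SD, n = 3 each) and Fkbp2 (-0.87) and of the thioredoxin-like Tmx3 (0.93). With the offset Fkbp11 (2.19) was called, and Fkbp2 (-0.097) and Tmx3 (0.42) were not.

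In glycoprotein quality control 3 of 9 genes were higher and none lower. Lman1, the cargo receptor ERGIC-53, had 167 ± 17.3 CPM in WT against 285 ± 12.8 CPM in SIRPα KO (SD, n = 3 each; log2 fold change 0.78, adjusted p = 0.0136 from edgeR), Ganab, a glucosidase, had a log2 fold change of 0.40, and Uggt2, a folding sensor, had 0 reads in WT and 17, 15 and 24 reads in the SIRPα KO libraries, at least 17.4-fold higher against a floor of 3 reads over the WT group. Uggt2, counted among the 3 higher genes, could pass the read filter only through the SIRPα KO libraries, where its mean was 1.12 CPM. Its call therefore adds no support of its own. Of the oligosaccharyltransferase, which attaches N-glycans, 2 of 12 genes were higher and 3 lower, the latter the small subunits Krtcap2 (-0.87), Tmem258 (-0.80) and Dad1 (-0.58). Of 22 genes of translocation and signal peptide removal, 3 were higher and 3 lower. The largest changes were those of Ssr3 (0.79) and Ssr1 (0.65), subunits of the translocon-associated protein complex, and Srp54a (0.68) of the signal recognition particle. With the offset none of these 3 was called, with Ssr3 at 0.44, Ssr1 at 0.045 and Srp54a at 0.21. Of the genes for N-glycans and their quality control named above, Lman1 (0.30), Ganab (0.15) and Tmem258 (-0.18) were not called with it.

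Of 22 further degradation genes, Selenok, a selenoprotein of the ER membrane, alone passed the test (-0.66, adjusted p = 0.0326 from edgeR, and -0.64 with the offset). For export from the ER, 3 of 17 genes were higher and none lower. These were Sec23a (1.08) and Sec23b (0.69), paralogs that form the inner COPII coat, and Tfg (0.69), which gathers COPII vesicles, and all 3 were called with the offset too (0.65, 0.51 and 0.67). Of 6 genes for nucleotide exchange and other J and HSP70 proteins, Hspa13, an HSP70-like ATPase, alone passed (0.99, adjusted p = 0.0202 from edgeR).

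**Figure D5:**
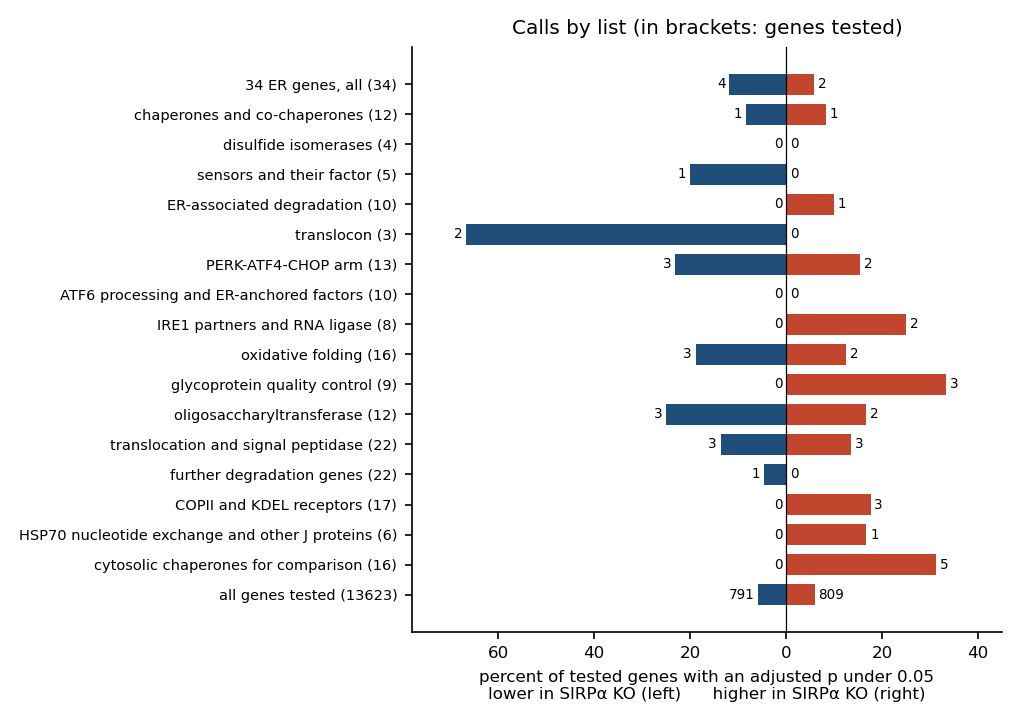
Percent of the tested genes of each list with an adjusted p under 0.05 from edgeR, lower in SIRPα KO to the left and higher to the right, with the number of genes beside each bar. The 34 ER genes stand at 11.8% lower and 5.88% higher, beside 5.81% and 5.94% of all genes, and the short lists rest on few genes.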

How the data were processed

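RNA was measured by bulk RNAseq in the 3 WT and 3 SIRPα KO libraries of cultured lung ILC2s, with cDNA made from 10 pg of RNA by a kit for very small inputs. The authors aligned the reads with STAR to mm10 (GENCODE M21) in Partek and deposited estimated counts per gene, not scaled for depth, with 56.9% to 60.7% of the values whole. The submitters' processing notes give Partek 10.0, STAR 2.7.8 and DESeq2; strand use and the handling of shared reads are not given in the sources used here.

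After rounding to whole numbers, genes were filtered with filterByExpr (10 reads in a library of median size, 15 in all), scaled by TMM, and compared with edgeR 4.0.16 (R 4.3.3; glmQLFit and glmQLFTest on genotype), and p values were adjusted by Benjamini-Hochberg. A log2 fold change is SIRPα KO over WT, and its standard error comes from the F statistic. CPM are TMM-scaled. Symbols matched GENCODE M21 directly (17400) or by synonym (189), and 242 did not match. Transcript length is that of the principal isoform. The alternatives were DESeq2 1.42.0, RLE and upper quartile factors, no filter, a replicate block, libraries of one code summed, each library left out, an offset from splines (5 degrees of freedom each) on length and GC content, and 3 variants of that offset chosen after seeing the data (summed codes, median-length transcript, without WT replicate 3). Copies were found with BLAST+ 2.17.0 at 95% identity over 50% of the length. The fits were also run on simulated data, in which 200 genes differed.

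Only 238 gene columns were checked singly for their unit, and the other 17593 were taken to hold it too. The members, lists, rules and tests were chosen with earlier results of these data known. Every one of the 34 genes was named with its log2 fold change. Values by library were given for those past the threshold, for Hspa5, Xbp1, Ern1, Atf6 and Eif2ak3, and for the 3 largest and 3 smallest log2 fold changes. In each other list, up to 3 genes with the largest changes past the threshold were named, or the largest change where none passed. Atf4 and Eif2s1 were named in addition. The p values treat the 3 libraries of a group as replicates and may measure technical spread only.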

Additional observations from a re-analysis of the deposited data

How the results depend on the processing

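The calls depended on the SIRPα KO libraries, on how codes were treated and on transcript length, and the cause of each change was not tested unless stated. The number of all genes called, 1600, was 3170 with DESeq2, 10 with libraries of one code summed (which leaves fewer samples) and 28 with that and the length and GC offset. It ran from 16 to 2606 with one library left out in turn, the low end being without a SIRPα KO replicate. Of the 34 genes, the number higher, 2, was 10 with DESeq2, 1 with upper quartile factors (under which the median over all genes was -0.125), 0 with summed codes with or without the offset, and 5 with the offset without WT replicate 3. The number lower, 4, was 0 with no filter on low counts, 0 with summed codes with or without the offset and 1 with the offset on the median-length transcript. Left-out libraries gave 0 to 8 higher and 0 to 4 lower.

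With the replicate block, 1 of the 34 was higher (Hyou1) and 1 lower (Sec61b), and 1118 genes were called in all. Same-numbered libraries had correlations of deviations of -0.14, 0.19 and 0.05, so the numbers were not taken to pair the libraries.

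The median of the 34 was 0.055 with upper quartile factors, 0.001 with the median-length offset and 0.030 with the offset without WT replicate 3, and 0.126 to 0.209 over left-out libraries. In the first 3 of these settings the median over all genes was -0.125, -0.088 and -0.015, against -0.025 in the main fit, so the whole scale moved too. For the chaperones (0.24) it was 0.138 with upper quartile factors, 0.016 with the offset, 0.048 with the offset and summed codes, 0.035 with the median-length offset and -0.024 with the offset without WT replicate 3 (left-out range 0.186 to 0.304). For the disulfide isomerases (0.20) the values were 0.108, 0.118 (offset), -0.001 (median-length offset) and 0.061 (offset without WT replicate 3), and 0.131 to 0.230 over left-out libraries, the low end without WT replicate 3. For the sensors and Xbp1 (0.53) the 4 offsets gave 0.315, 0.314, 0.313 and 0.305, and left-out libraries 0.251 (without SIRPα KO replicate 3) to 0.696. For degradation (0.054) upper quartile factors gave -0.047, the median-length offset -0.082, the offset without WT replicate 3 0.001 and left-out libraries -0.001 to 0.102. For the translocon (-0.65) the offset gave -0.039, summed codes with it -0.040, the median-length offset -0.404 and the offset without WT replicate 3 -0.087, and left-out libraries -0.760 to -0.445.

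The sign of the log2 fold change held in all 16 alternatives for 21 of the 34 genes and turned for 13 in 48 of 544 values, and of the 6 genes called only Sdf2l1 turned. With the offset, with it and summed codes, with the median-length offset and with it without WT replicate 3, in that order, Canx was at -0.026, -0.012, -0.064 and -0.032, Dnajc3 at -0.309, -0.353, -0.381 and -0.154, Creld2 at 0.310, 0.309, 0.118 and 0.322 and Pdia3 at -0.157, -0.157, -0.265 and -0.147. In the same order Derl1 was at -0.172, -0.178, -0.261 and -0.152. With the offset and with it and summed codes, Sdf2l1 was at 0.005 and 0.022 and Dnajb9 at -0.130 and -0.090, and Dnajb9 was at -0.257 with the offset without WT replicate 3. With the median-length offset, Dnajc10 was at -0.053, Pdia6 at -0.010 and Edem2 at -0.005, and with the offset without WT replicate 3, Dnajc10 was at -0.091 and Pdia4 at -0.008. With upper quartile factors, Pdia3 was at -0.036, Edem2 at -0.041 and Derl1 at -0.052. Over left-out libraries, Dnajb9 ran from -0.029 to 0.418, Dnajb11 from -0.030 to 0.005, Creld2 from -0.125 to 0.067, Derl1 from -0.021 to 0.112 and Edem1 from -0.092 to 0.080; the end of other sign was the value without WT replicate 3 for the first 4. Dnajb11 was also at 0.008 with DESeq2 and 0.007 with no filter. Edem1, near 0, was at 0.023 with DESeq2, 0.007 with RLE factors, 0.020 with no filter, 0.005 with the block and 0.067 with summed codes.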

Other observations

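The chaperones of the cytosol, nucleus and mitochondria, listed beside those of the ER, were higher in SIRPα KO where they passed the test. Of 16 such genes, 5 were higher and none was lower by edgeR, beside 5.94% and 5.81% of all genes. At an unadjusted p under 0.05 there were 10 above 0 and none below, beside 16.1% and 15.8% of all genes, and the median log2 fold change was 0.38. Hspa1b, an inducible HSP70, had 7.02, 9.24 and 12.8 CPM in WT against 44.7, 28.3 and 36.0 CPM in SIRPα KO (log2 fold change 1.91, adjusted p = 0.0134 from edgeR). It has a near-identical copy, Hspa1a, so reads could be shared between them. Hspd1 (HSP60), which folds proteins in mitochondria, had 496 ± 40.7 CPM in WT against 833 ± 31.4 CPM in SIRPα KO (SD, n = 3 each; log2 fold change 0.75, adjusted p = 0.0109 from edgeR). Hsph1 (HSP105), a nucleotide exchange factor of cytosolic HSP70, had a log2 fold change of 0.68 (adjusted p = 0.0316 from edgeR). With the length and GC offset, Hspa1b (1.997) and Hspd1 (0.59) were called and Hsph1 (0.35) was not, and the median of the 16 genes was 0.34. None of these 3 genes passed with any SIRPα KO library left out or with the codes summed, where 16 to 17 and 10 of all genes passed.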
